A study of Homo sapiens with 24 samples.

Results

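A set of 10 genes that carry the signal from mitogens to S phase entry was followed through RNA sequencing of 4 human lung cancer cell lines. They were chosen by name, as RB1, RBL1, CDKN2A, CCND1, CCND2, CCNE1, CDK4, CDK6, E2F1 and E2F2, and are 10 of the 60623 genes listed in the tables. All 10 were listed for H1299, DMS454 and H1694 and 8 for A549. CDKN2A and CCND2 were not analysed here in A549. The gene manipulated in the study was HEPACAM2, a cell adhesion protein of the immunoglobulin family. A549 and H1299 (also called NCI-H1299), labelled as lung cancer lines, had 1 group labelled control with a WT genotype (library code Lv) and 1 labelled OE, with HEPACAM2 overexpressed (code Hp). DMS454 and H1694 (NCI-H1694), labelled as small cell lung cancer lines, had 1 group labelled control with a WT genotype (code G) and 1 labelled CRISPR, with a HEPACAM2 knockdown genotype (code pL). Each of the 8 groups held 3 libraries, stated to be independent biological replicates. The labels give no vector, guide or clone, so it is not known here whether each group is 1 clone, and no group carried any other stated treatment.

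Depth ran from 12704476 to 20332419 reads per library in H1299, 16358272 to 29838960 in A549, 15652553 to 30241598 in DMS454 and 19682771 to 31770858 in H1694. HEPACAM2 averaged 0.367 normalized counts in A549 control and 6007 in A549 OE libraries, and 2.88 and 25322 in those of H1299. In both small cell lines it was lower in the libraries labelled control than in those labelled CRISPR, at 6550 against 11187 in DMS454 and 3557 against 10356 in H1694. This goes against the labels, so these groups are called the libraries labelled control and labelled CRISPR throughout, and every difference in these lines is given as labelled control minus labelled CRISPR. The small cell lines held neuroendocrine markers: CHGA, which encodes chromogranin A, averaged 5125 normalized counts in DMS454 and 4868 in H1694, in the libraries labelled control. The sum of 8 such markers was 49579 to 50516 in H1694 labelled control libraries, where 1 of them averaged under 10. In control libraries it was 150 to 189 in A549 and 68.5 to 88.4 in H1299, where 3 and 4 of the markers had a value. Of the defining epithelial markers, EPCAM averaged 5.2 in H1299 control and 71.9 in H1694 labelled control libraries. Within each H1299 group the library numbered 1 lay farthest from its group mates, with a median absolute log2 difference over genes of 0.213 for control 1 and 0.209 for OE 1 against 0.136 to 0.148 for the other 4. The H1299 results are therefore given with and without this pair. Marker sums for blood cells were at or below 16.6 normalized counts in every group with a value, and those for mitochondrial, histone and MALAT1 transcripts overlapped between the groups of each line. The epithelial sum was 14336 to 16432 in H1299 OE against 16878 to 19632 in control and 192662 to 202162 in A549 OE against 212571 to 221257 in control libraries. The tuft-type sum, nearly all SOX9, was 1932 to 2455 against 989 to 1318 in H1299, 247 to 315 against 407 to 503 in A549, and 568 to 623 in labelled control against 759 to 866 in labelled CRISPR libraries of H1694, where POU2F3, the defining marker, averaged under 10. In DMS454 the neuroendocrine sum was 168310 to 170421 in labelled control against 157327 to 165712 in labelled CRISPR libraries, and the epithelial sum 56489 to 57378 against 57448 to 58189. The part of these differences in the results was not tested.

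The products of these genes form a chain of control. D-type cyclins (CCND1, CCND2) bind and activate the kinases CDK4 and CDK6, which phosphorylate the retinoblastoma protein (RB1) and its relative p107 (RBL1) and so release E2F factors from repression. E2F1 and E2F2 then activate genes for DNA replication and also CCNE1, whose product cyclin E activates CDK2 and phosphorylates RB1 further, while the INK4 inhibitor encoded by CDKN2A blocks CDK4 and CDK6. Loss of RB1 function is a hallmark of small cell lung cancer, and CDKN2A message is often abundant in cells without functional RB1. CDKN2A also encodes ARF, an activator of p53, in another reading frame. Reads of both transcripts were counted together.

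In GRCh38, by GENCODE 29, RB1 lies on chromosome 13 from 48303726 to 48599436 and its relative RBL1 on chromosome 20 from 36996349 to 37095995. CDKN2A lies on chromosome 9 from 21967753 to 21995301, and CCND1 on chromosome 11 from 69641087 to 69654474. CCND2 lies on chromosome 12 from 4273772 to 4305350, CCNE1 on chromosome 19 from 29811898 to 29824308, CDK4 on chromosome 12 from 57747727 to 57756013 and CDK6 on chromosome 7 from 92604921 to 92836594. E2F1 lies on chromosome 20 from 33675683 to 33686404 and E2F2 on chromosome 1 from 23506430 to 23531220. HEPACAM2, the manipulated gene, lies near CDK6 on chromosome 7, from 93188586 to 93226524. Whether this position had a part in the CDK6 differences given below was not tested. The values cover all exons of each gene as the authors counted them. Whether counting used the strand is not given in the sources used here, so reads of overlapping or antisense neighbours cannot be told apart from those of the gene.

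E2F genes are among the known targets of E2F factors, so the start regions of the 10 genes were searched for 4 forms of the E2F motif, TTTCGCGC, TTTGGCGC, TTTCGCGG and TTTGGCGG, on both strands. RefSeq windows from 250 bases before to 50 after a start (GRCh38.p14) existed for 8 of the 10 genes, with 10 windows in all. By the coordinates above, the windows of RB1 and CDK4 lie wholly inside the gene, as do a window of CDK6 and a window of CDKN2A. The search thus did not cover the outer end of every gene. E2F1, E2F2 and RBL1 each held 2 matches in 1 window, and the windows of the other 5 genes held none. Of 35116 windows of all genes, 2.19% held at least 1 match and 0.0683% held at least 2. The 100 bases with the matches are shown for these 3 genes because their levels are compared below, with each match in capitals and each sequence read 5′ to 3′ on the gene's own, minus, strand. They span chr20:33686386-33686485 for E2F1, chr1:23531234-23531333 for E2F2 and chr20:37095998-37096097 for RBL1.
E2F1: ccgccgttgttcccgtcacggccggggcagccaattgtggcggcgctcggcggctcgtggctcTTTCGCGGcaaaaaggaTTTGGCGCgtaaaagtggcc
E2F2: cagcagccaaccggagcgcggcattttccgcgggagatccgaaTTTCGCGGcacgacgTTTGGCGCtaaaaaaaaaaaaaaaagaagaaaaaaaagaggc
RBL1: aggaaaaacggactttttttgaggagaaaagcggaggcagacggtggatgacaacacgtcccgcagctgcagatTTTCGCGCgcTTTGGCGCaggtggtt
In all 3 genes a form starting TTTCGCG precedes TTTGGCGC by a short spacer. A match is a description of the letters only, and whether the matches had a part in the changes given below was not tested.

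Of the members listed in all 4 lines, control levels differed most for CCND1, RB1 and CDK6. Levels across lines are given as RPM, the reads of a gene per 1000000 reads of its library, as mean ± SD over 3 libraries. They come from the libraries labelled control in all 4 lines. In the small cell lines these had the lower HEPACAM2, so whether they were the unmanipulated group is not known here. No test was made across lines, because their tables were scaled separately. CCND1 was at 389 ± 18.2 RPM in A549 and 359 ± 52.3 in H1299, whose libraries overlapped. It was at 0.241 ± 0.160 in DMS454, from 15 reads in 3 libraries (exact 95% Poisson interval 8.40 to 24.7 reads), and at 0.0331 ± 0.0573 in H1694, from 2 reads (0.242 to 7.22). CCND1 message was thus abundant in both lines not labelled small cell and close to the detection limit in both small cell lines, whose libraries overlapped each other. CCND2, the other D-type cyclin of the set, was low in every line that listed it, with 21 reads in the 3 H1299 control libraries, 2 in DMS454 and 0 in H1694. By the same kind of interval, a count of 0 allows up to 3.69 reads in the summed H1694 libraries. These limits and intervals cover counting error only.

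RB1 was highest in H1694, at 114 ± 2.82 RPM, followed by H1299 at 66.4 ± 6.66, A549 at 46.5 ± 0.237 and DMS454 at 5.26 ± 0.590. No neighbours in this order overlapped, and the mean in H1694 was 21.7 times that in DMS454. The small cell lines thus sat at opposite ends for RB1 message, with 107, 106 and 129 normalized counts in the 3 DMS454 libraries labelled control and 2778, 2737 and 2646 in those of H1694. RBL1 varied far less, from 34.4 ± 0.893 in A549 and 32.5 ± 0.954 in H1299 to 17.7 ± 1.47 in DMS454 and 17.2 ± 0.333 in H1694. The libraries of the first pair overlapped, as did those of the second. Per kilobase of merged exon, the ratio of RB1 to RBL1 was 0.277 ± 0.0553 in DMS454, 1.25 ± 0.0387 in A549, 1.88 ± 0.152 in H1299 and 6.13 ± 0.266 in H1694. DMS454 was the line in which the p107 message exceeded that of RB1.

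CDK4 was the steadiest member, at 327 ± 2.10 RPM in DMS454, 244 ± 15.0 in H1299, 231 ± 3.04 in H1694 and 199 ± 2.46 in A549. H1299 and H1694 overlapped. CDK6, its partner kinase, ran from 241 ± 14.9 in H1299 through 70.2 ± 2.50 in A549 and 58.9 ± 2.27 in DMS454 to 29.4 ± 2.93 in H1694, with no overlap between neighbours. The mean in H1299 was 8.19 times that in H1694. In DMS454, CDK6 averaged 2106 normalized counts in the libraries labelled CRISPR against 1279 in those labelled control. The order of A549 and DMS454 thus depends on the group taken. The CDK4 to CDK6 ratio per kilobase of exon was 3.94 ± 0.472 in H1299, 11.0 ± 0.266 in A549, 21.5 ± 0.965 in DMS454 and 30.6 ± 3.19 in H1694. Per kilobase of exon, CDK4 message exceeded that of CDK6 in every line, most in the small cell lines. Without division by length the genes overlapped in H1299 control libraries, at 233 to 261 RPM for CDK4 and 226 to 255 for CDK6.

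CDKN2A, E2F1 and E2F2 were each higher in both small cell lines than in the other lines that listed them. CDKN2A was at 225 ± 4.80 RPM in DMS454 and 209 ± 0.463 in H1694 against 86.2 ± 25.0 in H1299. E2F1 was at 149 ± 5.79 in H1694, 133 ± 3.92 in DMS454, 76.3 ± 6.91 in A549 and 56.9 ± 9.81 in H1299. E2F2 was at 53.5 ± 1.78 in H1694, 48.4 ± 2.02 in DMS454, 27.5 ± 1.02 in H1299 and 24.2 ± 1.43 in A549. None of the neighbours in these orders overlapped, and the H1299 values include the control library that stood apart. CCNE1 spanned a narrower range, with 33.3 ± 0.672 in H1694, 28.8 ± 1.95 in DMS454, 25.9 ± 0.964 in A549 and 17.3 ± 0.867 in H1299, and DMS454 overlapped A549. In the DMS454 libraries labelled CRISPR, CCNE1 was at 25.6 ± 3.22 RPM, so the order of DMS454 and A549 depends on the group taken. In H1694 it averaged 620 normalized counts in the libraries labelled CRISPR against 794 in those labelled control.

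**Figure D1:**
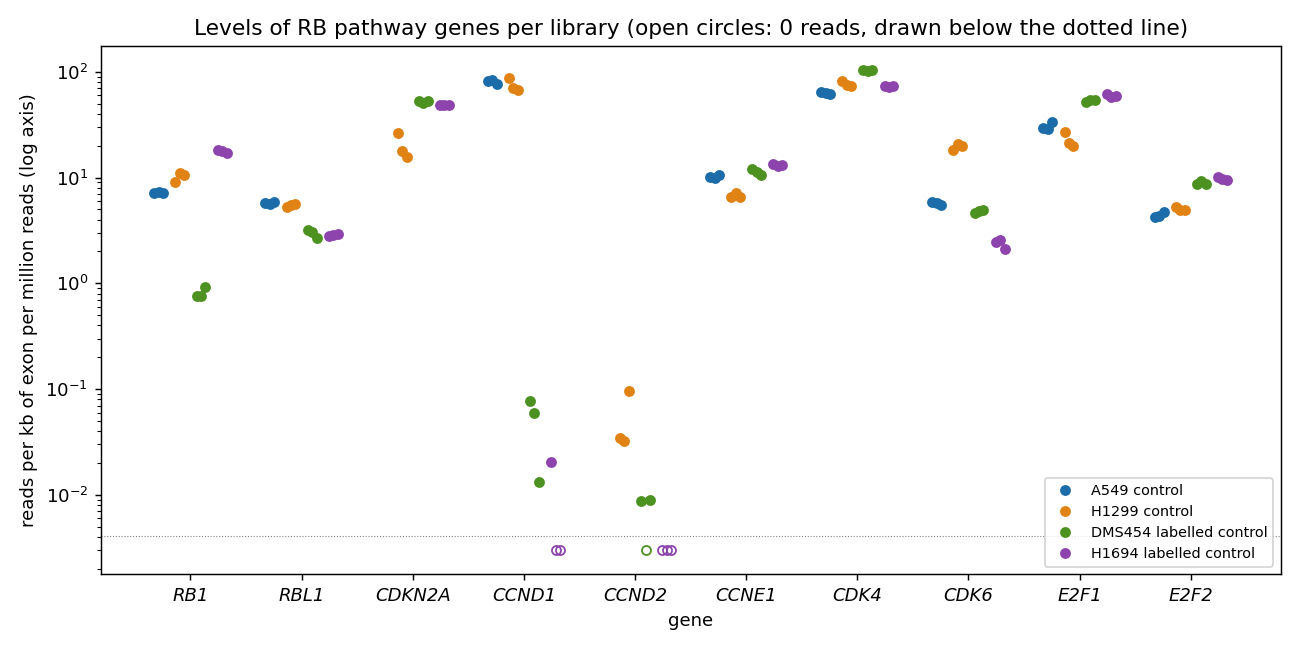
Levels of the 10 genes in each library labelled control, in RPM, divided by the kilobases of merged exon, on a log axis, with 1 point per library and open circles for 0 reads. CCND1 lies orders of magnitude lower in DMS454 and H1694 than in A549 and H1299, RB1 is lowest in DMS454, and CDK4 lies in a narrow band in all 4 lines.

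In A549, HEPACAM2 overexpression went with higher message of both G1 kinases, of the cyclin genes CCND1 and CCNE1 and of the pocket protein gene RBL1, and with lower message of E2F2. RB1 and E2F1 passed the test by a small margin. Of the 8 members tested, 6 were higher in OE than in control libraries and 2 were lower, at a limma adjusted p under 0.05 over 16707 genes. Over all genes tested, 44.4% were called, 22.5% higher and 21.9% lower, so that a call was common in this line. The 3 OE libraries lay wholly above or below the 3 control libraries for 7 of the 8, against 51.8% of all genes tested. Changes are log2 differences of normalized count + 1. In these bulk libraries a change in the number of cells of a kind and a change in RNA per cell cannot be told apart.

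CDK6 had the largest change of the set in A549. Its normalized counts were 1420, 1426 and 1332 in control libraries 1, 2 and 3 and 2212, 2389 and 2370 in OE libraries. Every OE library lay above every control library, and the change was 0.74 ± 0.04 (SE) on the log2 scale, or 1.67-fold, with a limma adjusted p of 6.66e-19. CDK4 rose less, from 3964, 4013 and 3891 to 5076, 5040 and 5164 normalized counts, a change of 0.36 ± 0.04 (limma adjusted p = 1.28e-11). With this unequal rise the CDK4 to CDK6 ratio per kilobase went from 11.0 ± 0.266 (SD, n = 3) in control to 8.49 ± 0.363 in OE libraries. CCND1, their activating cyclin, rose from 7832, 8050 and 7270 to 10001, 9864 and 10070, a change of 0.37 ± 0.04 (limma adjusted p = 6.86e-12). CDK4, CDK6 and CCND1 had no overlap between groups.

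RBL1 rose in A549 from 677, 673 and 695 to 914, 883 and 930 normalized counts (0.41 ± 0.06, limma adjusted p = 2.16e-08), and CCNE1 from 508, 504 and 533 to 651, 653 and 665 (0.35 ± 0.06, limma adjusted p = 7.07e-06). E2F2 fell from 459, 471 and 511 to 363, 363 and 418, a change of -0.33 ± 0.07 (limma adjusted p = 2.28e-04). RBL1 and E2F2 thus moved in opposite directions in the same libraries. RB1 and E2F1 were at the edge of the threshold. RB1 had 910, 941 and 915 in control and 1057, 963 and 999 in OE libraries (0.13 ± 0.05, limma adjusted p = 0.0475), and E2F1 had 1433, 1443 and 1665 against 1376, 1316 and 1459 (-0.13 ± 0.05, limma adjusted p = 0.0458). The groups overlapped for E2F1 and did not for RB1. The RB1 call was lost without OE 1, OE 3, control 1 or control 3 and the E2F1 call without OE 1, OE 2 or control 3, with limma adjusted p reaching 0.242 and 0.406. In the authors' deposited table the adjusted p was 0.150 for RB1 and 0.109 for E2F1.

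In H1299, E2F2 was the 1 member of 9 that passed the test, and it fell. Its normalized counts were 509, 473 and 493 in control libraries 1, 2 and 3 and 385, 352 and 342 in OE libraries, with no overlap, a change of -0.45 ± 0.09 (limma adjusted p = 0.00713). Over the 16192 genes tested 28.8% were called, 13.5% higher and 15.3% lower, so the share of members called was below that of all genes. The groups did not overlap for 2 of the 9, against 43.3% of all genes. CCND2 was below the level needed for a test, with 21 reads in control and 22 in OE libraries.

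CDKN2A had the widest spread. It measured 2032, 1353 and 1228 normalized counts in control libraries 1, 2 and 3 and 1723, 2932 and 3038 in OE libraries, so that OE 1 lay below control 1 and the groups overlapped. The change was 0.73 ± 0.25 and missed the threshold (limma adjusted p = 0.0626). CCND1 had the same arrangement, with 7431, 5964 and 5855 in control and 5453, 7186 and 6829 in OE libraries, and a change of 0.01 ± 0.13 (limma adjusted p = 0.942). E2F1 had 1208, 929 and 909 against 784, 974 and 959 (-0.16 ± 0.13, limma adjusted p = 0.394). In all 3 genes control 1 was the highest control library and OE 1 the lowest OE library.

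Without both libraries numbered 1, which leaves 2 against 2, 55.1% of the 16192 genes were called, 27.1% higher and 28% lower, and 5 of the 9 members. CDKN2A then rose by 1.21 ± 0.06 on the log2 scale (limma adjusted p = 1.40e-14) and CCND1 by 0.25 ± 0.04 (limma adjusted p = 1.65e-05). E2F2 fell by 0.48 ± 0.09 (limma adjusted p = 9.84e-05), RB1 by 0.25 ± 0.06 (0.00133) and CCNE1 by 0.27 ± 0.11 (0.0391). E2F1 changed sign, to 0.07 ± 0.07, and was not called (limma adjusted p = 0.363). E2F2 was the member called in both analyses. The pair was left out for its distance in these same data, which by itself narrows the spread within groups. The adjusted p-values and shares of this fit are therefore not comparable with those of the main fit. With 1 library left out, CDKN2A was called without OE 1 (0.99, limma adjusted p = 0.00496) or without control 1 (0.95, 0.0144), and RB1 without control 1 (-0.24, 0.0357). DESeq2 on all 6 libraries also called CDKN2A (0.74, adjusted p = 0.00555).

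The remaining members in H1299 showed small differences. CCNE1 was at 298, 323 and 306 in control and 212, 268 and 254 in OE libraries with no overlap (-0.34 ± 0.12, limma adjusted p = 0.0583). RB1 was at 1045, 1264 and 1253 against 1081, 1066 and 1056, and its groups overlapped through control 1. For CDK6 the 95% confidence interval of the change was -0.19 to 0.15, for CDK4 -0.27 to 0.07 and for RBL1 -0.23 to 0.14, so that rises of the size seen in A549 lay outside each interval.

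**Figure D2:**
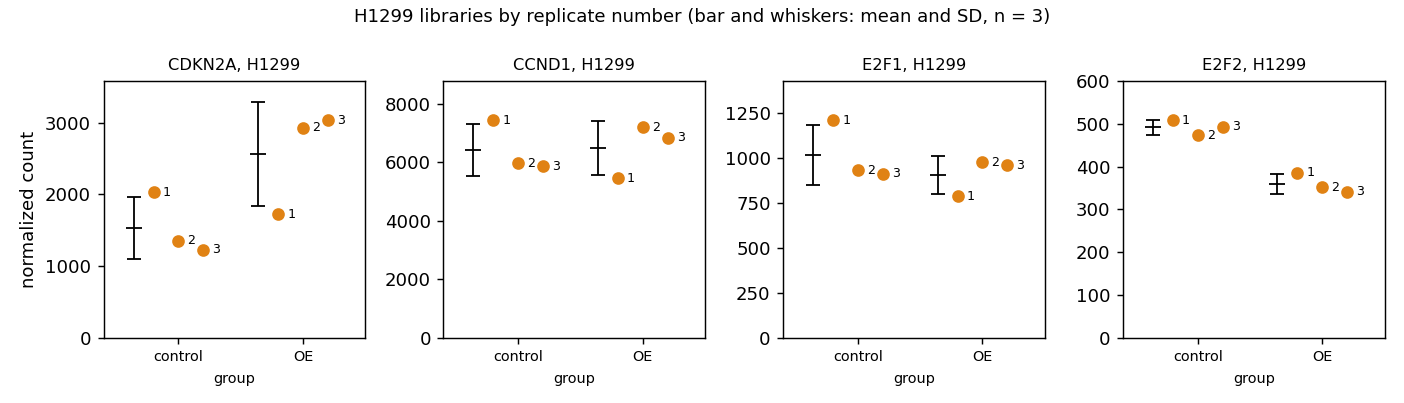
Normalized counts of CDKN2A, CCND1, E2F1 and E2F2 in the 6 H1299 libraries, with the replicate number beside each point and the mean and SD (n = 3) as bar and whiskers. Control 1 and OE 1 lie on the far side of their groups for the first 3 genes, while for E2F2 all OE libraries lie below all control libraries.

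In DMS454, CDK6, E2F1 and CDK4 were lower in the libraries labelled control, where HEPACAM2 was lower, than in those labelled CRISPR, and no member was called higher. This was 3 of the 8 members tested, against 18.9% of all 18868 genes tested, of which 9.72% were called higher and 9.15% lower. The groups did not overlap for these 3, against 36.6% of all genes. CDK6 measured 1225, 1292 and 1321 normalized counts across the libraries labelled control and 2121, 2270 and 1927 across those labelled CRISPR, with no overlap, a difference of -0.72 ± 0.06 or 0.609 times (limma adjusted p = 1.27e-05). E2F1 measured 2802, 2929 and 2963 against 3492, 3448 and 3416 (-0.25 ± 0.04, limma adjusted p = 0.00153). These 2 genes were called in every fit that left out 1 library. CDK4 measured 7162, 7052 and 7112 against 7786, 7748 and 7866, a small difference of -0.13 ± 0.04 with no overlap (limma adjusted p = 0.0206). The ratio of CDK4 to CDK6 per kilobase was 21.5 ± 0.965 (SD, n = 3) for the group labelled control and 14.4 ± 1.30 for the group labelled CRISPR.

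RB1 was scarce in both DMS454 groups, at 107, 106 and 129 normalized counts across the libraries labelled control and 112, 93.3 and 76.6 across those labelled CRISPR, and the difference of 0.29 ± 0.17 was not called (limma adjusted p = 0.251). CCNE1 measured 668, 627 and 584 against 488, 522 and 638, where the library labelled CRISPR 3 lay inside the range of the other group (0.20 ± 0.10, limma adjusted p = 0.184). E2F2 measured 1028, 1101 and 1029 against 1224, 1196 and 1091 (-0.15 ± 0.06, limma adjusted p = 0.104). CDKN2A and RBL1 differed by 0.06 ± 0.04 and 0.02 ± 0.09, with adjusted p of 0.298 and 0.905 by limma. CCND1 and CCND2 stayed below the level needed for a test, with 15 and 20 reads for CCND1 and 2 and 0 for CCND2 in the libraries labelled control and labelled CRISPR. The library labelled CRISPR 3 lay farthest from its group mates, at a median absolute log2 difference of 0.165 against 0.0814 to 0.119 for the other 5. Without it 5 members were called, with CCNE1 at 0.31 (limma adjusted p = 8.14e-04) and E2F2 at -0.20 (0.00278) added, while the share of all genes called also went from 18.9% to 35%. The CDK4 call was lost without labelled control 1, 2 or 3 or labelled CRISPR 1 or 2, with adjusted p up to 0.101, and under DESeq2 (0.0582).

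In H1694, CCNE1, CDK6 and RB1 were higher and E2F1 was lower in the libraries labelled control, where HEPACAM2 was lower, than in those labelled CRISPR. This was 4 of 8 members, against 17.6% of all 17780 genes tested, 8.9% higher and 8.73% lower. The groups did not overlap for these 4, against 35% of all genes. E2F1 measured 3692, 3411 and 3542 normalized counts across the libraries labelled control and 4531, 4457 and 4527 across those labelled CRISPR, a difference of -0.35 ± 0.04 (limma adjusted p = 3.07e-05). CCNE1, a cyclin gene downstream of E2F factors, went the other way, with 811, 778 and 793 against 601, 611 and 647 (0.36 ± 0.06, limma adjusted p = 5.54e-04). E2F1 and CCNE1 had no overlap and were called in every fit that left out 1 library.

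CDK6 in H1694 measured 727, 756 and 623 against 618, 574 and 539 (0.28 ± 0.08, limma adjusted p = 0.0218), and RB1 2778, 2737 and 2646 against 2608, 2442 and 2261 (0.16 ± 0.05, limma adjusted p = 0.0412). Neither gene's groups overlapped, although for CDK6 the lowest library labelled control, at 623, lay close to the highest labelled CRISPR, at 618. The CDK6 call was lost without labelled control 1 or 2 or labelled CRISPR 2 or 3, and the RB1 call without labelled control 1, 2 or 3 or labelled CRISPR 2 or 3, with adjusted p up to 0.130 and 0.160. The RB1 call was also lost with edgeR or DESeq2. CDK4, RBL1, CDKN2A and E2F2 differed by -0.10 to 0.06 on the log2 scale and were not called, apart from CDK4 without labelled CRISPR 1 (0.10, limma adjusted p = 0.0444). CCND1 had 2 reads over the libraries labelled control and 7 over those labelled CRISPR, and CCND2 had 0 and 2. Neither was tested. The summed level of the endothelial markers, carried by CDH5, ran from 3119 to 3188 in the group labelled control and from 3670 to 3806 in the group labelled CRISPR, with VWF under 10 in both groups. That of the fibroblast markers, carried by COL1A2, was 1292 to 1379 and 975 to 1145, with COL3A1 and LUM at 0. Their part in the differences was not tested.

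**Figure D3:**
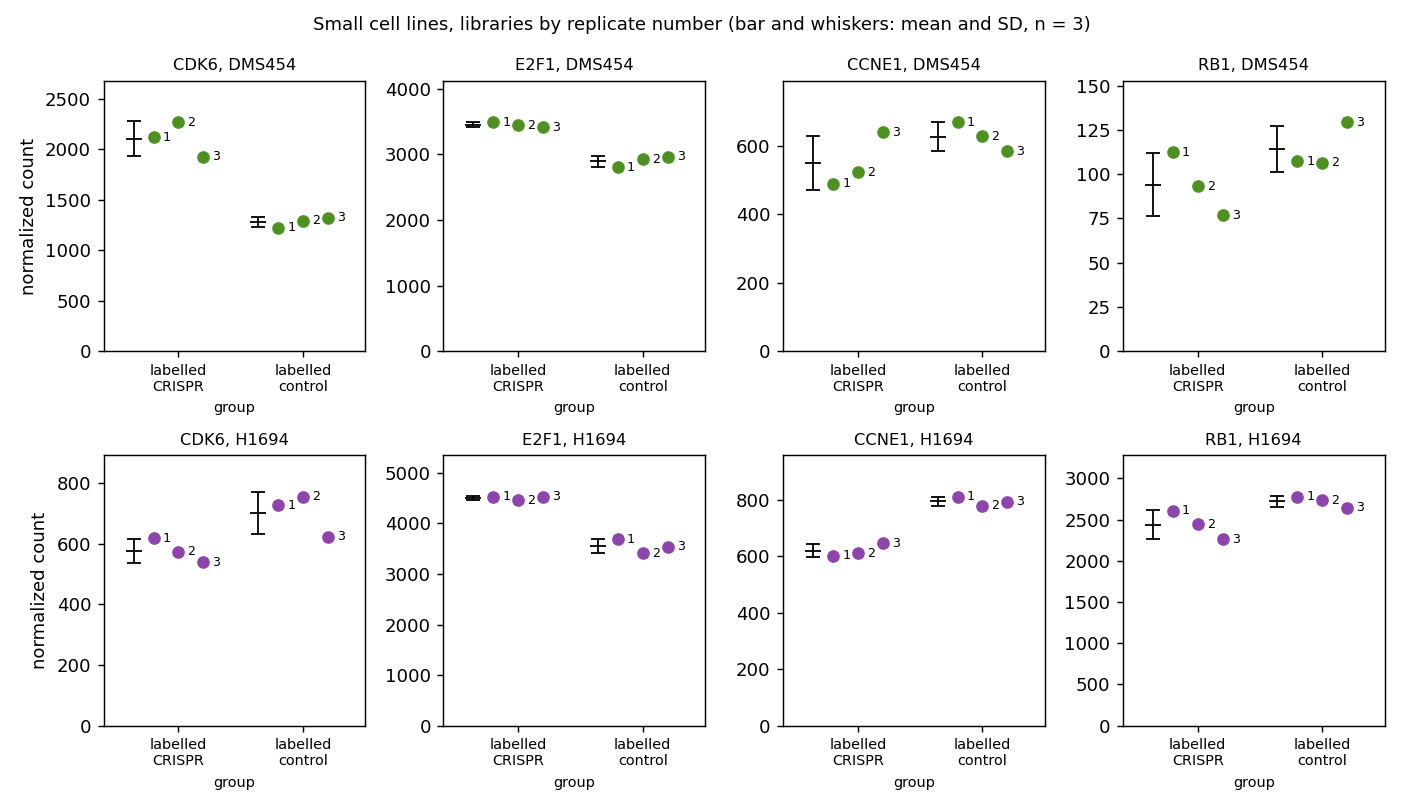
Normalized counts of CDK6, E2F1, CCNE1 and RB1 in the 6 libraries each of DMS454 (upper row) and H1694 (lower row), with replicate numbers and the mean and SD (n = 3). E2F1 is lower in all libraries labelled control of both lines, whereas CDK6 is lower in them in DMS454 and higher in H1694.

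The changes were then compared between lines by testing the difference of the changes in 1 limma fit per pair of lines. Between A549 and H1299, 5 of the 8 members tested in both differed, against 41.2% of 14578 genes. The change in H1299 was below that in A549 by 0.76 ± 0.08 for CDK6 (limma adjusted p = 9.61e-06), 0.69 ± 0.12 for CCNE1, 0.46 ± 0.08 for CDK4, 0.46 ± 0.08 for RBL1 and 0.27 ± 0.10 for RB1 (limma adjusted p = 0.0454). All 5 estimates were above 0 in A549 and below 0 in H1299. CDK6, CCNE1, CDK4 and RBL1 were called in each of the 12 fits that left out 1 library and without both H1299 libraries numbered 1, while RB1 was called in 3 of those 12, namely without A549 OE 2, H1299 OE 1 or H1299 control 1. CCND1 (-0.36 ± 0.15, limma adjusted p = 0.0682) was called without H1299 OE 2 (0.0313) or control 3 (0.0478). The changes of E2F1 and E2F2 differed by -0.03 ± 0.16 and -0.12 ± 0.12, with 95% confidence intervals of -0.37 to 0.31 and -0.37 to 0.14. Without both H1299 libraries numbered 1 the E2F1 difference turned to 0.20 and was called (limma adjusted p = 0.0446). E2F2 was called lower in OE libraries of both lines.

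Between the small cell lines, 2 of 8 members differed, against 20.2% of 15460 genes. The difference in H1694 exceeded that in DMS454 by 0.996 ± 0.109 for CDK6 (limma adjusted p = 1.17e-05) and by 0.20 ± 0.05 for CDK4 (limma adjusted p = 0.0161), and both were called in each of the 12 fits that left out 1 library. CDK6 thus moved in opposite directions in the lines labelled small cell, as the differences of -0.72 and 0.28 show. CDKN2A (-0.14 ± 0.06, limma adjusted p = 0.110) was called without the H1694 library labelled CRISPR 2 (0.0428). For E2F1 the changes of -0.25 and -0.35 differed by -0.09 ± 0.06 (95% confidence interval -0.21 to 0.03). E2F1 was called lower in the libraries labelled control of both small cell lines.

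**Figure D4:**
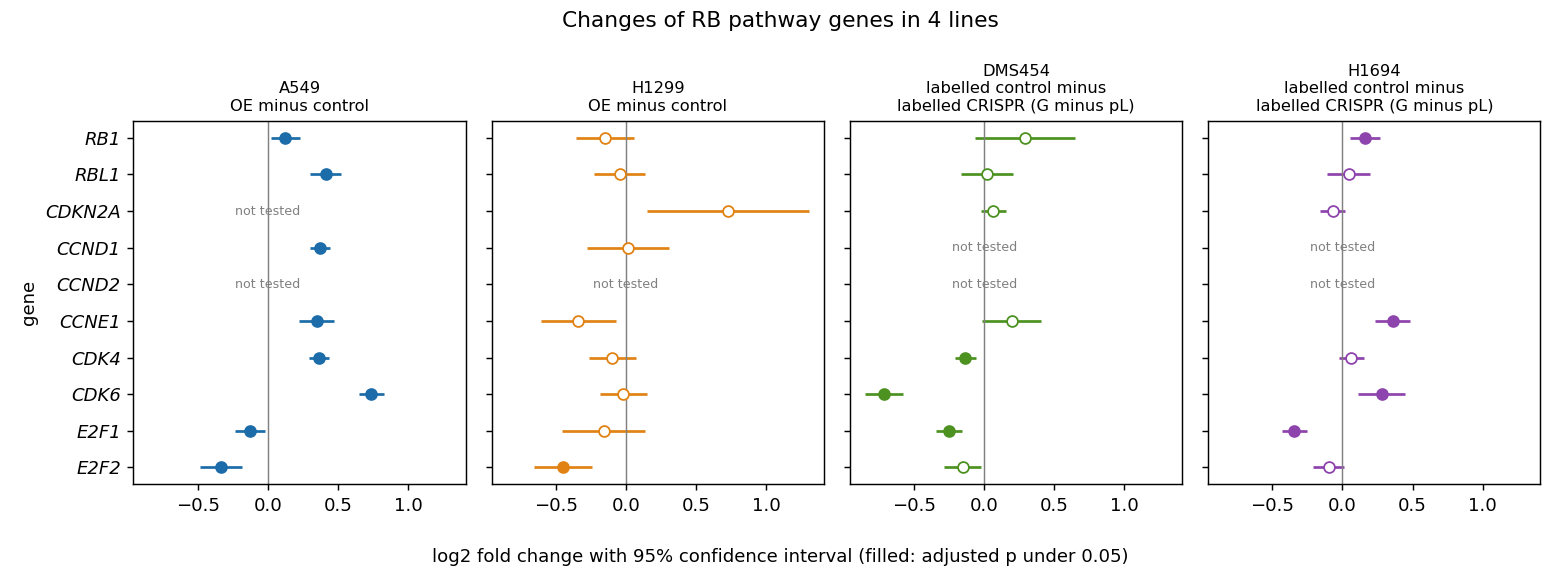
Log2 fold changes of the 10 genes in each line with 95% confidence intervals, filled where the adjusted p was under 0.05. A549 and H1299 show OE minus control, with HEPACAM2 higher, and the small cell lines labelled control minus labelled CRISPR, with HEPACAM2 lower. The same side of 0 therefore stands for opposite directions relative to HEPACAM2 between these pairs of lines. The kinases and CCND1 lie to the right in A549, CDK6 lies near -0.72 in DMS454 and near 0.28 in H1694, and E2F1 and E2F2 lie to the left of 0 in all 4 panels, although E2F1 in H1299 turns to 0.07 without both libraries numbered 1.

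The wider pathway was described with 65 other genes in 5 lists. In A549, 24 of 64 tested were higher and 8 lower, or 50% called, near the 44.4% of all genes (22.5% higher and 21.9% lower). The E2F target genes of G1/S, which encode replication proteins and their regulators, held 17 higher and 1 lower of 30 (60% called), with a median change of 0.13 against 0.00 over all genes, and their largest change was that of UHRF1, a DNA methylation cofactor, at 0.51 ± 0.04. MYBL2, an E2F target and partner of the MuvB complex, rose by 0.59 ± 0.04 and FOXM1, a mitotic activator, by 0.26 ± 0.04, while RBL2, which encodes the pocket protein p130, fell by 0.33 ± 0.05. Of the CDK inhibitors 3 of 5 (60%) were lower and none higher: CDKN2C (-0.45 ± 0.06) and CDKN2D (-0.44 ± 0.14), both of the INK4 family, and CDKN1B (-0.43 ± 0.05), which encodes p27. CCND3, the third D-type cyclin, fell by 0.43 ± 0.04 while CCND1 rose. The CDKN2D call was lost without control 2 (limma adjusted p = 0.0655), and the E2F and DP list held 4 calls, or 2 without OE 3, where E2F8 was lost (0.0609).

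In H1299, 34 of 65 were lower and 6 higher, or 61.5% called against 28.8% of all genes (15.3% lower and 13.5% higher). Of the E2F targets 17 of 30 (56.7%) were lower and none higher, with a median of -0.28 against 0.00 over all genes. MCM10, a replication initiation factor, fell by 0.67 ± 0.11, CLSPN, a checkpoint mediator, by 0.61 ± 0.09 and CDC6, a licensing factor, by 0.56 ± 0.08. Of the E2F and DP factors 6 of 8 were lower, among them E2F4 (-0.68 ± 0.11) and the E2F partner TFDP1 (-0.63 ± 0.08), and of the cyclins, CDKs and activators 8 of 12 were lower, led by CDC25A, a phosphatase that activates CDKs, at -0.96 ± 0.08. Of the 6 CDK inhibitors 5 were higher, including CDKN2D (0.73 ± 0.15), CDKN2B (0.67 ± 0.09) and CDKN1B (0.49 ± 0.09). MYBL2 fell by 0.73 ± 0.11. The difference of the changes between H1299 and A549 was called for MYBL2 (-1.31 ± 0.13), TFDP1 (-0.85 ± 0.08), CDKN1B (0.92 ± 0.11), CDKN2C (0.90 ± 0.15), CDKN2D (1.17 ± 0.20) and MYC (-0.96 ± 0.11), with limma adjusted p from 2.31e-06 to 4.05e-04. These H1299 counts moved with single libraries: the 40 calls became 23 without OE 2, OE 3 or control 3 and 25 without control 2, where 16.5% to 17.7% of all genes were called. In those 4 fits the E2F targets held 9 or 10 calls and the cyclin list 3, and the CDK inhibitors held 3 without OE 2 or OE 3. Without both libraries numbered 1 there were 58, beside 55.1% of all genes, and the E2F targets then held 25 lower and 3 higher. With the replicate block 10.1% of all genes were called, and the CDK inhibitors held 1 call and the E2F targets 6. The calls of CDKN2D and CDKN1B were lost in that fit (limma adjusted p = 0.0515 and 0.0538).

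In DMS454, 11 of the 65 were higher and 3 lower in the libraries labelled control, or 21.5% called, near the 18.9% of all genes. TFDP1 was higher by 0.62 ± 0.12 and CDKN1B by 0.40 ± 0.04, while MYBL2 was lower (-0.29 ± 0.06). Of the E2F targets 6 of 30 were higher and 1 lower, or 23.3% called, also near the share of all genes, with a median of 0.01. Among those higher were TK1, RRM2 and TYMS, all enzymes of nucleotide supply, by 0.21 to 0.26. The 14 calls became 9, 7 and 8 without labelled control 1, 2 and 3 and 34 without labelled CRISPR 3, while the share of all genes called was 10.4% to 11.6% and 35% in these fits. The calls of TFDP1 (without labelled control 3 or labelled CRISPR 1), TYMS (without labelled control 2) and MYBL2 (without labelled control 1) were lost. In H1694, 8 were higher and 12 lower, or 30.8% called against 17.6% of all genes. CDKN1A, which encodes the inhibitor p21, stood at 7540 against 2887 normalized counts, a difference of 1.39 ± 0.05 (limma adjusted p = 1.10e-10), and this exceeded the DMS454 difference of 0.48, which was not called (limma adjusted p = 0.106), by 0.91 ± 0.24 (limma adjusted p = 0.0244). Of the E2F targets 8 of 30 were lower and 1 higher, with MCM7, a helicase subunit, at -0.28 ± 0.04. CCNE2, the paralog of CCNE1, was higher by 0.29 ± 0.04. The 20 calls became 12, 11 and 11 without labelled control 1, 2 and 3 and 10 without labelled CRISPR 2, where 10.3% to 12% of all genes were called, and the E2F targets then held 3 or 4 calls in place of 9. MYBL2 was called lower in the libraries labelled control of H1694 too, at -0.18 ± 0.05, except without labelled control 2 or 3.

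**Figure D5:**
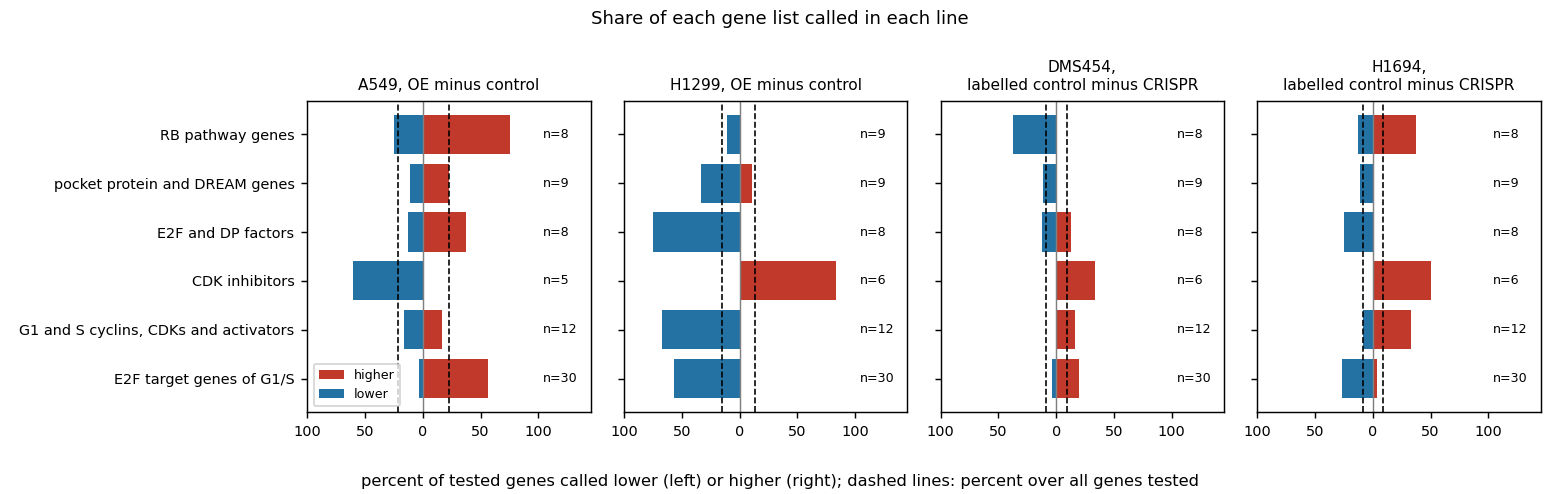
Percent of the tested genes of each list called higher (right) or lower (left) in each line, with dashed lines at the percent over all genes tested and the number tested beside each bar. The E2F targets and CDK inhibitors lie on opposite sides in A549 and in H1299, and both lists change side between these 2 lines.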

How the data were processed

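The authors extracted total RNA with on-column DNase treatment and made strand-specific libraries, per the labels' protocols. Per the submitters' processing notes, CASAVA, FastQC, Trim Galore, STAR, DESeq2 and hg38 were used. Versions, counting tool and annotation: not given in the sources used here. Counts divided by size factors, a signal, were deposited for each library together with their mean. Fold changes and standard errors were deposited as log2 values by the authors. Raw and adjusted p-values and a Wald statistic, a score, were also deposited. Multiplying out the size factors gave whole reads within 0.01 for 100% of values.

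Gene identifiers were matched to symbols with GENCODE 29. In R 4.3.3, genes with a group mean of at least 10 normalized counts were tested per line with limma 3.58.1 (trend and robust) on log2(normalized count + 1), because the tables hold scaled values. P-values were adjusted by Benjamini-Hochberg over all genes tested, with a threshold of 0.05. Alternatives were TMM scaling, a pseudocount of 5, no filter, a minimum of 50, edgeR 4.0.16 and DESeq2 1.42.0 on recovered reads, a replicate block, leaving out each library, and leaving out both H1299 libraries numbered 1. The code was tested on simulated data. The 10 genes, the lists and the tests were chosen with earlier results of these data known. The rule for naming took from each list and line the 3 called genes that changed most, if their mean reached 50. CDKN2C in H1299, CDKN1A in DMS454 and the list genes compared between lines were named after their values were seen. Some results are not reported here.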

Additional observations from a re-analysis of the deposited data

Results flagged for a closer look

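The changes of 5 genes differed between A549 and H1299 by the limma test of the difference, as H1299 minus A549 on the log2 scale: RB1 by -0.27, RBL1 by -0.46, CCNE1 by -0.69, CDK4 by -0.46 and CDK6 by -0.76. The RB1 difference was lost in 9 of the 12 fits that left out 1 library and with no filter, edgeR, DESeq2 or the replicate block. Between DMS454 and H1694, as H1694 minus DMS454, CDK4 differed by 0.20 and CDK6 by 0.996, in the direction of the libraries labelled control minus those labelled CRISPR. Both of these held in every alternative run.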

How the results depend on the processing

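The number of members called in H1299 was 1 in the main fit, 2 with DESeq2, 0 with the replicate block and 5 without both libraries numbered 1. The share of all genes called in these fits was 28.8%, 27.2%, 10.1% and 55.1%, in the same order. Leaving out 1 library gave 1 to 3 in H1299, 2 to 5 in DMS454, 2 to 5 in H1694 and 6 to 8 in A549. For the 65 other genes it gave 23 to 43 calls in H1299, 7 to 34 in DMS454, 10 to 23 in H1694 and 26 to 33 in A549, and the replicate block gave 15 in H1299. With 1 library left out, the share of all genes called was 16.5% to 33.5% in H1299, 10.4% to 35% in DMS454, 10.3% to 25.4% in H1694 and 38.5% to 41.8% in A549. Leaving out 1 library turned the direction of CCND1 in H1299 (range -0.0637 to 0.135, below 0 without OE 2, OE 3, control 2 or control 3), of CDK6 in H1299 (-0.0730 to 0.0131, above 0 without OE 3 or control 2) and of RBL1 in DMS454 (-0.0327 to 0.0852, below 0 without labelled control 1 or labelled CRISPR 1). Without both libraries numbered 1, E2F1 in H1299 became 0.0723. The cause was not tested, except that fewer libraries were fitted. The deviations of same-numbered libraries had correlations from -0.07 to -0.01 for A549, -0.54 to -0.18 for H1299, 0.01 to 0.03 for DMS454 and -0.09 to 0.12 for H1694, so the numbers were not taken as a pairing. In H1299 control 1 instead deviated with OE 2 (0.33) and OE 3 (0.38), and OE 1 with control 2 (0.24) and control 3 (0.39). Why these libraries leaned toward the other group was not tested. With the replicate block, E2F2 in H1299 had a limma adjusted p of 0.0684, and the calls of RB1 in A549 and of RB1 between A549 and H1299 were lost, with no other call of a member lost. Counts of CCND2 in all 3 lines that listed it and of CCND1 in both small cell lines were too low, and no test was made.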
